A study of Mus musculus with 2 samples.

Results

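The mitosis genes are 35 genes, named by symbol, of the 31053 genes counted in 2 single-cell RNA-sequencing libraries of cultured mouse aortic vascular smooth muscle cells (VSMCs). Each symbol matched 1 row of the count tables. The study cultured primary VSMCs from the aortae of wildtype mice for 5 days, a time in which part of the cells lose their contractile genes, and made 1 library from each of 2 biological replicates (libraries 1 and 2). Both libraries share the same condition, a C57BL6/N background, medium with fetal calf serum and no treatment. On average, the aortae of several mice were pooled for 1 cell preparation, so that a library is a culture and not an animal.

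A barcode counted as a cell if it held 3000 or more UMIs (unique molecular identifiers, each standing for 1 captured RNA molecule) from 300 or more genes, with mitochondrial UMIs below 20%. Library 1 held 4866 cells and library 2 held 6824. Endothelial cells (ECs) had at least 2 UMIs in 2 of Pecam1, Cdh5, Cldn5 and Gja4. The other cells were split by Myh11, the smooth muscle myosin heavy chain, into Myh11-high cells with at least 5 UMIs (473 and 879 cells), Myh11-low cells with at most 1 UMI (3954 and 5362 cells) and cells in between (337 and 442). There were 102 and 141 ECs. The summed level of 6 contractile markers was 22980 and 23210 CPM (UMIs per 1000000 UMIs of the class) in Myh11-high cells and 6065 and 3317 CPM in Myh11-low cells, and that of the 4 EC genes was 2286 and 2357 CPM in ECs and at most 5.25 CPM in the other classes. The EC genes define the ECs, and Myh11 is 1 of the 6 contractile markers, so that the class rule partly fixed these sums. Acta2, a contractile marker that the rule did not use, was at 14320 and 14100 CPM in Myh11-high cells. In Myh11-low cells it was at 3801 and 2123 CPM. Summed markers of macrophages (5 genes) and Schwann cells (4 genes) stayed between 3.40 and 31.3 CPM in all classes. The list of adventitial fibroblast markers (Pi16, Dpt, Cd34, Clec3b) reached 291.5 and 423 CPM in ECs, which are known to express Cd34, and at most 55.7 CPM elsewhere, and the markers of modulated VSMCs (Lum, Pdgfra, S100a4) summed to 2087 and 2240 CPM in Myh11-high and 2894 and 3880 CPM in Myh11-low cells. Median depth differed between the classes, with 25667 and 21018 UMIs in Myh11-high cells, 21979 and 15639.5 in Myh11-low cells and 14629 and 10250 in ECs. The libraries shared 9 cell barcodes, 0.185% of the cells of library 1 and 0.132% of library 2.

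Mitosis divides the copied chromosomes between daughter cells. Cyclin-dependent kinase Cdk1 with its A and B cyclins drives the entry, motor proteins and microtubule binders build the spindle, the kinetochore and its checkpoint hold the chromosomes until all are attached, Cdc20 then activates the ubiquitin ligase that destroys the cyclins, and the midzone proteins finish with cytokinesis. Transcripts of these genes are kept low in resting cells and accumulate from S phase and G2 onwards. VSMCs of the healthy vessel wall rarely divide, whereas VSMCs that modulate in culture or in lesions can re-enter the cell cycle.

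The promoters of such genes are known for a motif called CHR (cell cycle genes homology region), whose core reads TTTGAA and which is bound by complexes with a MuvB core, and for CCAAT boxes bound by NF-Y. RefSeq promoter windows (GRCm38.p6, from 250 bases before to 50 bases after the start of a gene) were used for 30 of the 35 members. On either strand, TTTGAA was in a window of 23 of these 30 genes (76.7%) and in a window of 20.2% of the 27025 genes used. CCAAT was in 25 of 30 (83.3%) against 41.1%, and both were in 22 of 30 (73.3%) against 7.97%. The 4 members of the table with neither motif were Birc5, Knstrn, Nusap1 and Tacc3. A match is a string of letters and not a shown binding site. Below are the 120 bases before the start of 5 members, written 5′ to 3′ on the strand of the gene, with TTTGAA or its complement TTCAAA and CCAAT or its complement ATTGG in capitals. Top2a and Hmgb2 were the members most tied to the early side of the programme, Ect2 lay near the middle, Cdkn3 was on the late side with both motifs and Knstrn was on the late side with neither. In order, they lie at chr11:99024190-99024309 (minus strand), chr8:57511723-57511842 (plus), chr3:27153879-27153998 (minus), chr14:46760421-46760540 (plus) and chr2:118813883-118814002 (plus).
Top2a: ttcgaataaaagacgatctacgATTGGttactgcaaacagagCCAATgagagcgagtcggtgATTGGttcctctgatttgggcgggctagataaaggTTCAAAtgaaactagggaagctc
Hmgb2: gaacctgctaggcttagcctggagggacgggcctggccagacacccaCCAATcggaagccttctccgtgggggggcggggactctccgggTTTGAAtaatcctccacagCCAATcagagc
Ect2: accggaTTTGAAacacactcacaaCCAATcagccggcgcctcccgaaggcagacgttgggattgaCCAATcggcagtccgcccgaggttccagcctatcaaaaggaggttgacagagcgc
Cdkn3: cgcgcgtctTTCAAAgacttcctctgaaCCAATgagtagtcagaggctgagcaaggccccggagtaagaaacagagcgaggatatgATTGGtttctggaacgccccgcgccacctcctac
Knstrn: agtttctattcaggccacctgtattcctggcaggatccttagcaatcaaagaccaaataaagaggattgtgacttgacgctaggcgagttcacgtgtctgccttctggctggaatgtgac

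All 35 mitosis genes were found in every class of both libraries. Levels are UMI sums per class as CPM, and since 1 tag is counted per molecule at its 3′ end, gene length does not enter them. In Myh11-low cells, the levels ran from 22.6 CPM (Kpna2) to 249.8 CPM (Top2a) in library 1 and from 17.3 CPM (Kpna2) to 176 CPM (Ube2c) in library 2. In Myh11-high cells, they ran from 20.4 CPM (Kpna2) to 239 CPM (Ube2c) and from 23.8 CPM (Kpna2) to 314 CPM (Ube2c). ECs spanned 10.2 CPM (Aspm) to 172 CPM (Hmgb2) in library 1 and 18.8 CPM (Bub1) to 214 CPM (Top2a) in library 2. Summed over the 35 genes, the level was 3193 and 3455 CPM in Myh11-high cells, 3134 and 2556 CPM in Myh11-low cells and 1919 and 2297 CPM in ECs. The plot of the levels by class shows the Myh11 classes overlapping for most genes and a group of genes, with Anln, Hmmr, Cdca3, Ccnb1 and Kif20a among them, in which both EC points lie below all others.

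**Figure D1:**
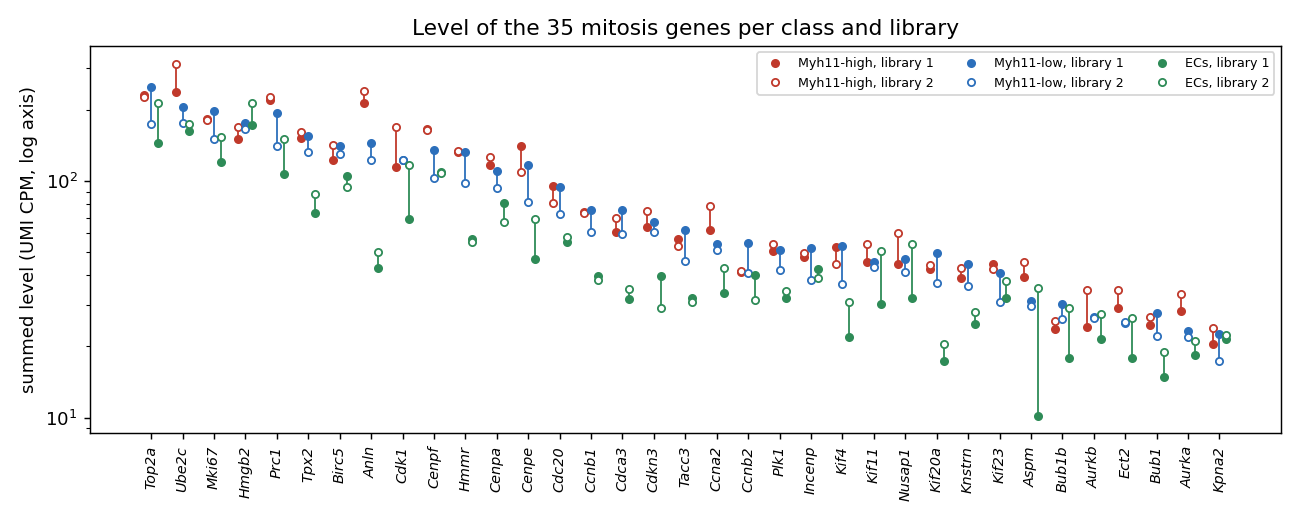
Level of each of the 35 mitosis genes (x axis, ordered by the mean in Myh11-low cells) as UMI CPM on a log axis, with filled points for library 1, open points for library 2 and a line joining them. Top2a was highest and Kpna2 lowest in Myh11-low cells, and for Anln the 4 VSMC points lie above 100 CPM while both EC points lie at or below 50.3 CPM.

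The genes were distributed unevenly over cells. A median of 7 and 4 of the 35 genes had a UMI in Myh11-low cells, 6 and 8 in Myh11-high cells and 2 and 2 in ECs, while 1 in 10 cells had at least 33 and 30, 34 and 34, and 30 and 26 of them, respectively. All 35 genes were found together in 259 Myh11-low cells of library 1 (6.55%) and 169 of library 2 (3.15%), in 34 and 69 Myh11-high cells (7.19% and 7.85%) and in 2 and 5 ECs. No gene at all was found in 3.59% and 7.78% of Myh11-low cells, 3.17% and 5.01% of Myh11-high cells and 15.7% and 23.4% of ECs. The histogram of genes per cell thus has a peak at few genes and a rise at the right end, with cells spread thinly between them. Shares of cells with a UMI depend on depth. Free RNA of the medium also gives UMIs: from the profile of barcodes with 1 to 100 UMIs, it alone would have put a member into between 0.969% and 13.3% of Myh11-low cells, and the observed share exceeded this estimate for 35 of 35 genes in each class and library.

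**Figure D2:**
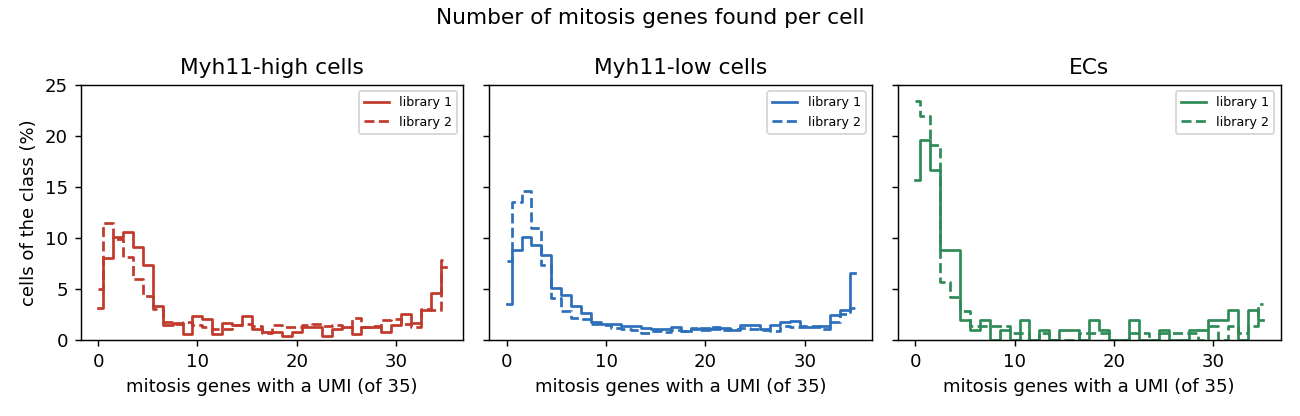
Number of the 35 mitosis genes with at least 1 UMI in a cell (x axis) against the share of cells of the class (y axis, percent), for Myh11-high cells, Myh11-low cells and ECs, with a solid line for library 1 and a dashed line for library 2. In each class most cells held few genes, and a smaller group held 30 or more.

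To divide the cells, 12 members served as anchors. The early anchors were Ccna2, Cdk1, Top2a, Mki67, Hmgb2 and Aurkb, and the late anchors were Cdc20, Ccnb1, Plk1, Aurka, Cenpa and Kif20a. A cell carried the mitosis call if at least 3 of the 6 genes of either list had at least 2 UMIs, and was early-only, late-only or both by which list passed. The call is a cut through a range and not a cell type: 273 and 273 Myh11-low cells were 1 anchor short of it, and 199 and 200 passed with no anchor to spare. It marks RNA of these genes and does not show that a cell was in mitosis. Early-only Myh11-low cells had the highest S-phase sums of all states (2737 and 2809 CPM). The words early and late name the anchor lists.

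The share of cells with the call was 33.4% (95% exact binomial interval 31.9 to 34.9) and 25.5% (24.4 to 26.7) in Myh11-low cells, a mean of 29.5% ± 5.55 (SD, n = 2 libraries). In Myh11-high cells it was 35.5% (31.2 to 40.0) and 38.8% (35.6 to 42.1), a mean of 37.2% ± 2.32. ECs carried it in 18.6% (11.6 to 27.6) and 17.0% (11.2 to 24.3), which were 19 and 24 cells. All intervals cover counting error only. With 2 libraries an exact permutation test cannot go below p = 0.33 even if the pairing of classes by library is left out, so that no test was made. In library 1 the intervals of both Myh11 classes overlap, and in library 2 they do not. The Myh11 classes were cut at a number of UMIs, so that deep cells reach the upper class more easily. With classes cut by Myh11 CPM (at least 250 against at most 50), the shares were 34.4% and 25.8% in Myh11-low and 30.5% and 32.3% in Myh11-high cells, so that the order of the classes differed between the libraries. With all cells thinned to 3000 UMIs and the call lowered to 1 UMI, they were 24.2% and 19.97% in Myh11-low, 23.7% and 27.1% in Myh11-high cells and 11.8% and 14.2% in ECs. Cells thinned to 10000 UMIs gave 28.0% and 23.9%, 28.5% and 32.1%, and 16.9% and 27.4%, the last of 71 and 73 ECs after 31 and 68 shallower ones were left out. The order between ECs and Myh11-low cells therefore held in library 1 and turned in library 2 among the cells deep enough for this. In library 2, 24 of 141 ECs carried the call before this thinning and 20 of 73 after it. ECs without the call were shallower there, with a median of 8807 UMIs, against 17805 in early-only ECs and 18158 in those that passed both. Thinning to 3000 UMIs left out no cell, and ECs were lower in both libraries.

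Between Myh11-low and Myh11-high cells, no mitosis gene passed the test. The test was edgeR's quasi-likelihood F test on the UMI sums per library and class, with Benjamini-Hochberg adjustment over 13221 genes, of which 0.424% were called higher and 1.84% lower in Myh11-low cells. Of the 35 members, 0 were called and 5 had an unadjusted p under 0.05 in edgeR, beside 2199 of the 13221 genes. DESeq2 called 2 members as lower, beside 5.82% of all genes. The median log2 fold change of the members was -0.20, with 32 of 35 below 0, and that of all genes tested was 0.02. With classes cut by Myh11 CPM instead, the median of the members was -0.03, with 20 of 35 below 0. With the classes cut by UMIs, library 1 alone gave a median of 0.02 for the members, beside 0.0758 for all genes. Library 2 alone gave a median of -0.38, beside 0.0766. The members were thus below 0 on balance in library 2 and not in library 1, and their median was below that of all genes in both. In these sums, fewer cells with the call and less RNA per cell cannot be told apart. With the library as a block, 4 members (11.4%) were called lower in Myh11-low cells, near the 8.83% of all genes called lower. This count does not set the members apart from other genes. The levels of the 4 follow.

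Anln encodes anillin, a scaffold that ties actin and septins to the contractile ring and is also found in the nucleus outside of division. The gene lies at chr9:22332012-22389188 on the minus strand (GRCm38, GENCODE M21). Its level was 214 and 241 CPM in Myh11-high cells and 145 and 123 CPM in Myh11-low cells, with no overlap (log2 fold change -0.82 ± 0.16 SE, adjusted p = 0.0614 in edgeR, 0.0102 with the block). It was found in 74.0% and 80.5% of Myh11-high cells and 61.2% and 51.8% of Myh11-low cells, the highest share among the 35 genes in Myh11-high cells of both libraries. Unlike most members, Anln was well above 0 in cells without the call: 78.2 and 101.8 CPM in Myh11-high and 41.0 and 41.2 CPM in Myh11-low cells, so that the classes also differed outside the called cells. Ube2c, the E2 enzyme that hands ubiquitin to the ligase opened by Cdc20, was at 239 and 314 CPM in Myh11-high and 205 and 176 CPM in Myh11-low cells (log2 fold change -0.59 ± 0.17 SE, adjusted p = 0.159, 0.0449 with the block). Cenpf, a large kinetochore and nuclear matrix protein, was at 167 and 165 CPM against 135 and 103 CPM (log2 fold change -0.54 ± 0.17 SE, adjusted p = 0.184, 0.0302 with the block). Aurka, the kinase of centrosome maturation, was at 28.1 and 33.3 CPM against 23.1 and 22.0 CPM (log2 fold change -0.50 ± 0.15 SE, adjusted p = 0.173, 0.0449 with the block). In none of the 4 did the classes overlap. The 4 were picked by the test with the block and overlap was not counted over all genes, so that this adds no support. In each of the 4 the difference was larger in library 2. In cells with 10000 to 30000 UMIs, fitted without the block, 0 of the 35 were called, as in all cells, 1.53% of all genes were called lower, and the log2 fold change of Anln was -0.86. Anln alone was called lower with classes cut by Myh11 CPM (3.46% of all genes were called lower), with classes of at least 10 against 0 Myh11 UMIs (5.01%) and without the 5% of cells with the most UMIs (2%).

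Against Myh11-low cells, ECs had lower levels of 8 of the 35 mitosis genes and higher levels of 0, in a comparison in which 6.52% of all genes were called lower and 9.73% higher. The 8 were Anln, Kif20a, Hmmr, Cdca3, Cdkn3, Tpx2, Ccnb1 and Tacc3, with log2 fold changes from -1.62 to -0.88. The median over the 35 members was -0.53, with 33 below 0, beside -0.03 over all genes. With the library as a block 16 members were called lower (15.6% of all genes were), and DESeq2 called 14 (9.9% of all genes). The members that edgeR called only with the block were Cdc20, Birc5, Cenpa, Knstrn, Plk1, Kif4, Ccna2 and Cenpe. Their adjusted p with the block ran from 0.0168 (Cdc20) to 0.0441 (Cenpe). Restricted to cells with 10000 to 30000 UMIs, only Anln was called (8.59% of all genes were called lower), the median was -0.14 and 16 members were above 0. Kif20a had a log2 fold change of -1.18 there, with an adjusted p of 0.0502 in edgeR. Library 1 alone gave a median of -0.75 and library 2 alone -0.23, beside 0.0692 and 0.0348 over all genes.

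Anln again had the largest difference, from 145 and 123 CPM in Myh11-low cells to 42.8 and 50.3 CPM in ECs (log2 fold change -1.62 ± 0.17 SE, adjusted p = 0.0028, range over the alternatives up to 0.0181). Kif20a, a kinesin of the central spindle that recruits Plk1 to the midzone, fell from 49.8 and 37.1 CPM to 17.3 and 20.6 CPM (log2 fold change -1.29 ± 0.22 SE, adjusted p = 0.0137, up to 0.0502). Hmmr, a microtubule binder that helps to focus spindle poles, fell from 132 and 97.7 CPM to 57.1 and 55.4 CPM (log2 fold change -1.13 ± 0.19 SE, adjusted p = 0.0137, up to 0.0971). In these 3 genes neither EC library reached the lower of the Myh11-low libraries. The genes had been picked by the test, so that this adds no support, and it was not counted over all genes. Cdca3, an adaptor that brings Wee1 to its destruction, was at 75.7 and 59.6 CPM and at 31.6 and 34.8 CPM in ECs (log2 fold change -1.12 ± 0.19 SE, adjusted p = 0.0137, up to 0.143). Cdkn3, a phosphatase that removes the activating phosphate of cyclin-dependent kinases, was at 67.1 and 61.2 CPM and at 39.7 and 29.1 CPM (log2 fold change -0.99 ± 0.20 SE, adjusted p = 0.0235, up to 0.111). Tpx2, the activator of Aurka on spindle microtubules, was at 155 and 132 CPM and at 73.4 and 87.9 CPM (log2 fold change -0.93 ± 0.16 SE, adjusted p = 0.0147, up to 0.104). Again the classes did not overlap, which adds no support in genes picked by the test and was not counted over all genes. Ccnb1, the main B cyclin, was at 75.1 and 60.7 CPM and at 39.7 and 38.3 CPM (log2 fold change -0.89 ± 0.17 SE, adjusted p = 0.0193, up to 0.224). Tacc3, which crosslinks kinetochore fibres, was at 62.3 and 45.8 CPM and at 32.1 and 30.8 CPM (log2 fold change -0.88 ± 0.20 SE, adjusted p = 0.0373, up to 0.178). By the roles given above, Ccnb1 and Cdkn3 act at entry, Cdca3 in protein turnover, Tpx2, Hmmr and Tacc3 at the spindle and Kif20a and Anln at the midzone and the contractile ring.

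Mki67 and Top2a, both known as proliferation markers, were not among them. Mki67, the coat protein of mitotic chromosomes, was at 198 and 151 CPM in Myh11-low cells and 121 and 154 CPM in ECs, and Top2a, the topoisomerase that untangles sister chromatids, at 249.8 and 175 CPM and 145 and 214 CPM. In both genes the classes overlapped (adjusted p = 0.185 and 0.406 in edgeR). Hmgb2, a chromatin protein that bends DNA, was at 176 and 165 CPM against 172 and 214 CPM and was found in 54.9% and 46.8% of ECs, the highest share of the 35 genes there. Aspm, a spindle pole protein, had the widest ratio between the EC libraries, with 10.2 and 35.4 CPM. The 23 members outside the anchor lists summed to 155 and 119 CPM in ECs without the call, to 3425 and 7796 CPM in the 14 and 9 ECs that passed both lists. Smooth muscle RNA differed between these ECs. In library 1, Acta2, the smooth muscle actin, was at 2577 CPM in ECs that passed both lists and at 1190 CPM in ECs without the call. In library 2 it was at 513 CPM in ECs that passed both, at 802 CPM in those without the call and at 2874 CPM in the 15 early-only ECs. Its part in the result was not tested. Without the 5% of cells with the most UMIs, 14 members were called lower in ECs, beside 8.92% of all genes.

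**Figure D3:**
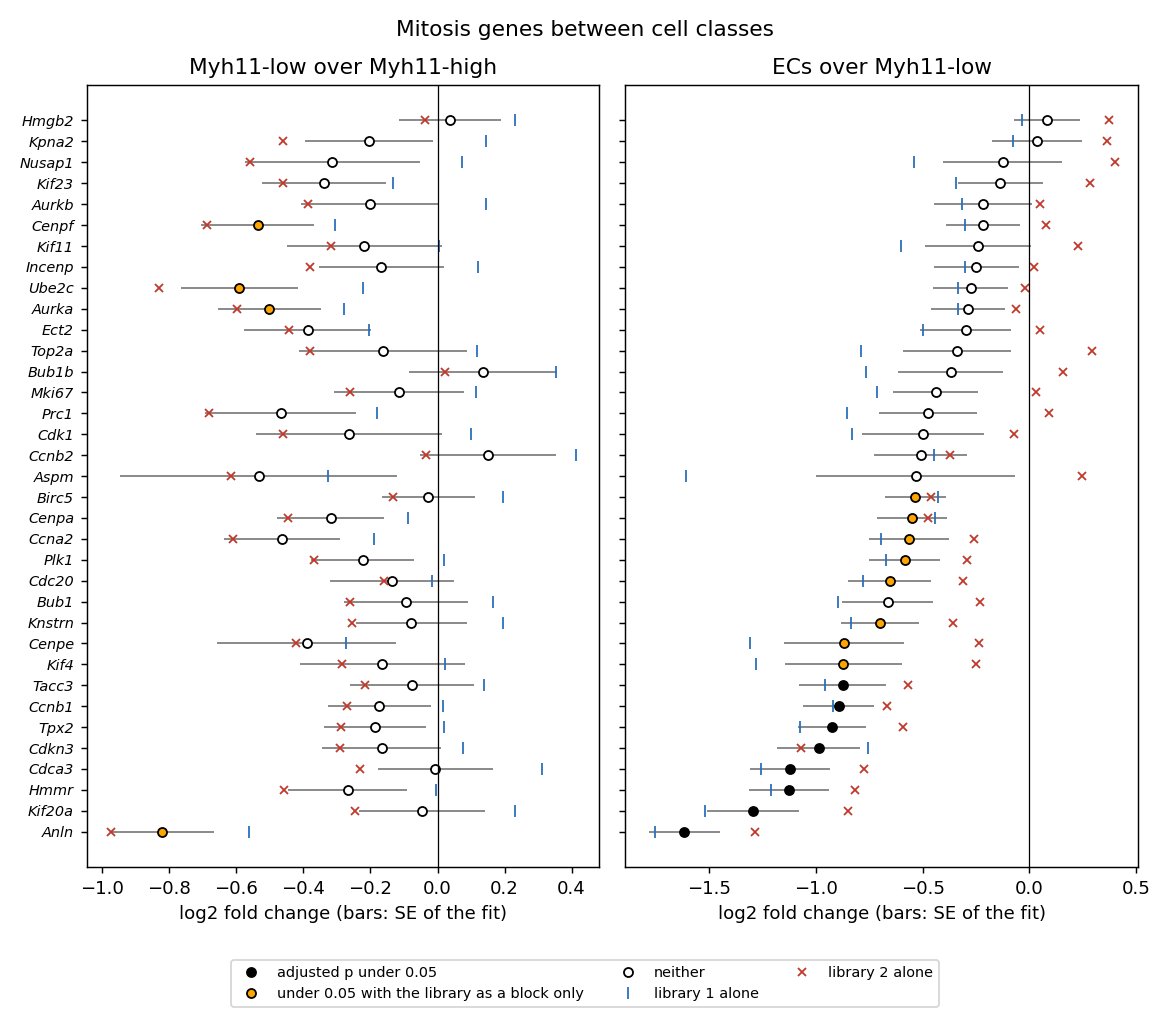
Log2 fold change of the 35 mitosis genes between Myh11-low and Myh11-high cells (left) and between ECs and Myh11-low cells (right), as circles with the SE of the edgeR fit as bars, and as a blue line and a red cross for library 1 and library 2 alone, for which no TMM scaling was applied. No circle on the left is filled black, the 8 black circles on the right all lie below 0, and the library 2 crosses lie to the left of the library 1 lines on the left and mostly to their right on the right.

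In a list of 59 further mitosis genes (kinetochore, condensin, kinesin and midbody genes), 0 were called between Myh11-low and Myh11-high cells, with a median log2 fold change of -0.24. In ECs 8 were called lower and 0 higher, beside 6.52% and 9.73% of all genes, with a median of -0.48. The 8 were Cks1b, Smc4, Spc24, Racgap1, Nuf2, Ckap2l, Kif2c and Gtse1. In cells with 10000 to 30000 UMIs, 0 of the 59 were called in ECs and the median was -0.14. With the library as a block, 3 of the 59 were called lower in Myh11-low than in Myh11-high cells and 16 were called lower in ECs, beside the 8.83% and 15.6% of all genes given above. The 4 highest in Myh11-low cells were Tubb4b, a beta tubulin (487 and 514 CPM), Arl6ip1 (232 and 252 CPM), Cks1b, a subunit of cyclin-dependent kinases (201 and 186 CPM), and Smc4 of condensin (198 and 163 CPM). Of 28 S-phase genes, 0 were called between the Myh11 classes, with a median of -0.30, and in ECs 2 were called lower, Rrm1 and Rrm2, and 1 higher, Mcm3, beside 6.52% and 9.73% of all genes. In cells with 10000 to 30000 UMIs, 0 were called lower in ECs, Mcm3 was called higher and the median was 0.19. Of all genes, 8.59% were called lower there and 9.49% higher. With the block, 2 of the 28 were called lower in Myh11-low than in Myh11-high cells, beside 8.83% of all genes. In ECs, 4 were called lower and 1 higher with the block, beside 15.6% of all genes in each direction. The highest S-phase genes in Myh11-low cells were Rrm1, the large subunit of ribonucleotide reductase (130.2 and 104 CPM), Tyms (72.3 and 67.0 CPM) and Slbp (61.5 and 67.3 CPM).

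Cells with the call held the early and the late anchors in different mixtures. Of the called Myh11-low cells, 28.7% and 34.6% were early-only, 58.2% and 53.5% passed both lists and 11.8% to 13.1% were late-only (173 and 162 cells). In Myh11-high cells late-only cells were 7.74% (4.18 to 12.9) and 7.04% (4.56 to 10.3) of the called cells, and in ECs there were 1 and 0 of them. Depth moved with the state: median UMIs were 19690 and 14493 in cells without the call, 25873 and 18242 in early-only cells, 30275 and 21189 in cells that passed both and 18636 and 13578 in late-only cells. The states also differed in genes that the call did not use. The 28 S-phase genes summed to 2737 and 2809 CPM in early-only, 1572 and 1735 CPM in both, 730 and 843 CPM in late-only and 353 and 382 CPM in uncalled cells. Each of the 28 was higher in early-only than in late-only cells in both libraries. Acta2, as an example of the contractile genes, was at 3706 and 2009 CPM in early-only, 3870 and 2165 CPM in both, 3979 and 2078 CPM in late-only and 3776 and 2131 CPM in uncalled Myh11-low cells. Lum, a marker of modulated VSMCs, was lower in each called state of both libraries. It was at 51.0 and 126 CPM in early-only, 59.4 and 112 CPM in both, 48.5 and 113 CPM in late-only and 107 and 175 CPM in uncalled cells. Pdgfra was at 140 and 103, 122 and 102, 104 and 82.1, and 120 and 113 CPM in the same order. In Myh11-high cells Acta2 was at 15304 and 16022 CPM in uncalled, 14715 and 12927 CPM in early-only and 12022 and 10895 CPM in cells that passed both. The 13 and 24 late-only cells had 16624 and 11238 CPM. Median UMIs were 23776 and 18436 in uncalled Myh11-high cells and 37501 and 26076 in those that passed both. The class was cut by Myh11 UMIs, and the part of depth in these values was not tested.

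Of the 23 members outside the anchor lists, 23 were higher in each called state than in uncalled Myh11-low cells in both libraries. Ccnb2 was nearly equal in early-only cells of library 1 (27.36 against 27.28 CPM). Median folds were 9.81 and 11.4 in early-only cells, 36.8 and 31.3 in cells that passed both lists and 10.8 and 14.7 in late-only cells. Among these 23, 20 were highest in Myh11-low cells that passed both lists, in both libraries. In late-only Myh11-high cells, 21 of the 23 were higher than in uncalled ones in both libraries. Late-only and early-only cells differed in their members: 13 of the 23 were higher in late-only cells in both libraries and 8 were higher in early-only cells. Since the members follow one another, these counts describe the states and are not an independent test of them. Values below are CPM in early-only cells and then in late-only cells, library 1 before library 2.

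Entry genes split. Ccnb2, the second B cyclin, was at 27.4 and 29.0 CPM in early-only and 154 and 137 CPM in late-only cells, 5.62-fold and 4.74-fold higher. Cdkn3 was at 40.9 and 47.0 CPM against 156 and 207 CPM. Of the anchors, whose direction the call partly fixes, Ccnb1 and Plk1, the polo kinase, were higher in late-only cells (Ccnb1 at 33.8 and 40.5 CPM against 106 and 139 CPM). Ccna2, the A cyclin, and Cdk1 were lower there, Cdk1 at 182 and 236 CPM against 24.0 and 42.6 CPM. Aurka is on the late list but was lower in late-only cells, at 12.8 and 17.9 CPM against 9.10 and 12.4 CPM, and reached 79.9 and 104 CPM in cells that passed both.

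Spindle genes lay on both sides. Knstrn, kinastrin of the kinetochore and spindle, was at 23.6 and 29.6 CPM in early-only and 105 and 142 CPM in late-only cells, and Hmmr at 84.4 and 87.5 CPM and 266 and 310 CPM. Tacc3 and Tpx2 were also higher late, by 2.56-fold and 2.67-fold and by 1.43-fold and 1.85-fold. Kif11, the bipolar motor that pushes the poles apart, was lower late, at 66.2 and 82.6 CPM against 11.6 and 21.7 CPM, as were Nusap1, which bundles microtubules near chromatin (42.5 and 57.5 CPM against 8.27 and 19.8 CPM), and Kpna2, an importin (16.8 and 16.7 CPM against 4.96 and 6.97 CPM). Aspm was close to equal at 14.6 and 24.2 CPM against 14.3 and 28.3 CPM.

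At the centromere, Cenpa, the histone H3 variant that marks it and an anchor, was at 32.3 and 38.6 CPM in early-only and 297 and 362 CPM in late-only cells. Cenpe, the kinetochore motor, was 1.49-fold and 1.77-fold higher late, the checkpoint kinases Bub1 and Bub1b 1.29-fold and 1.42-fold and 1.82-fold and 1.98-fold, and Cenpf 1.05-fold and 1.40-fold. The passenger complex split: its kinase Aurkb (an early anchor) was at 42.0 and 54.5 CPM and then 1.93 and 6.20 CPM, its scaffold Incenp, no anchor, at 91.8 and 81.6 CPM and then 9.65 and 9.68 CPM, while survivin, the product of Birc5, was at 169 and 215 CPM and then 212 and 318 CPM. In Myh11-high cells, Birc5 was at 154 and 176 CPM and then 130.3 and 102.8 CPM, 0.846-fold and 0.584-fold of the early level, with 13 and 24 late-only cells behind the second values, so that its order there was the opposite.

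Of the turnover genes, Cdc20 (an anchor) was at 41.7 and 36.9 CPM in early-only and 188 and 246 CPM in late-only cells and Cdca3 at 49.6 and 55.5 CPM and 174 and 199 CPM, whereas Ube2c was lower late, at 125 and 178 CPM and 90.7 and 134 CPM. Among genes of the midzone, Kif20a (an anchor) was 7.63-fold and 6.65-fold higher late and Kif23, the centralspindlin motor, was 1.94-fold and 1.63-fold higher late. Prc1, which bundles the antiparallel microtubules there, was at 206 and 209 CPM in early-only cells and only 44.7 and 51.5 CPM in late-only cells. In cells that passed both it was at 627 and 611 CPM. Kif4, its partner kinesin, was at 0.572-fold and 0.811-fold, Ect2, which acts in cytokinesis, at 0.618-fold and 0.987-fold, and Anln at 0.964-fold and 1.31-fold of the early level.

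The genes were also placed by another measure. It used the called cells and the same anchors, so that it is not independent of the states. In called Myh11-low cells thinned to 3000 UMIs, each gene was correlated across cells with the sum of the late anchors and with the sum of the early anchors, itself left out, and the difference of both r values placed it between them. These values describe cells that share a library and carry no p. The difference ran from -0.405 (mean of both libraries) for Top2a, over -0.292 for Hmgb2 and -0.237 for Incenp, to 0.273 for Cdkn3, 0.282 for Cdc20 and 0.354 for Cenpa. In both libraries 17 of the 35 genes lay on the late side and 13 on the early side, and the places correlated between the libraries at r = 0.974 across the 35 genes and 0.959 across the 23 that were no anchor, which are not independent replicates. Ccna2 (0.024) and Aurka (-0.022) lay near 0. Aurka was on the side opposite to its list in both libraries (-0.001 and -0.043), and the side of Ccna2 differed between them (-0.004 and 0.052).

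**Figure D4:**
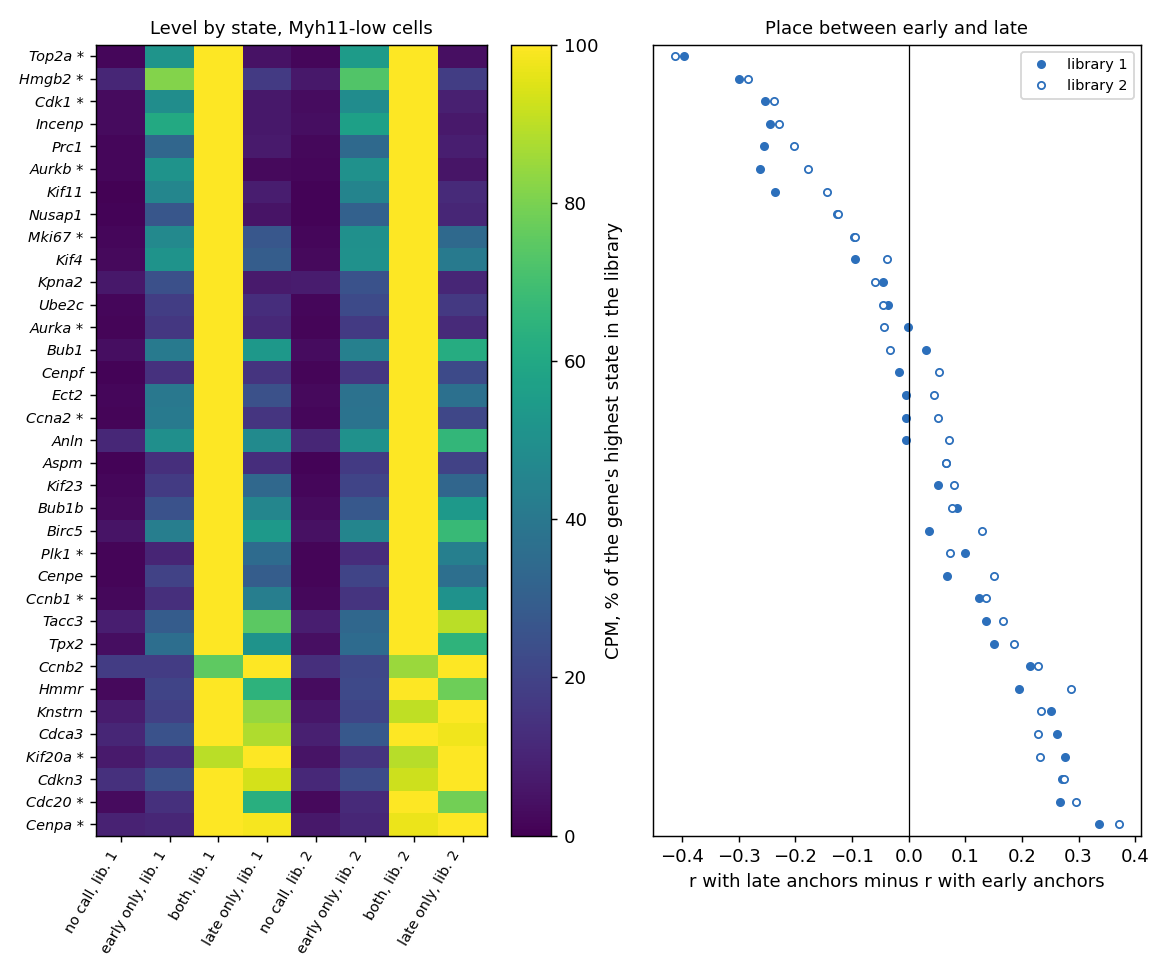
Left, level of each of the 35 mitosis genes in Myh11-low cells without the call, early-only, both and late-only cells of each library, as percent of the highest of these 4 states for that gene and library (anchors carry an asterisk). Right, Pearson r with the late anchors minus r with the early anchors in called cells, filled for library 1 and open for library 2, with genes in the same order, from Top2a at -0.405 at the top to Cenpa at 0.354 at the bottom.

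Of the 595 pairs of members, Top2a and Prc1 were the most tied, with r = 0.668 and 0.650 across all Myh11-low cells and 0.513 and 0.477 across called cells. Both had a UMI in 31.6% and 24.4% of Myh11-low cells, where their separate shares within deciles of UMIs give 21.3% and 13.2%. Next in called cells came Ube2c and Prc1 (0.492 and 0.494) and Cenpf and Ube2c (0.471 and 0.467). The lowest pair in called cells was Ccnb2 and Top2a, at -0.045 and -0.026. Called cells were chosen by the anchor lists, so that the values of anchor pairs there are not independent of the call. Between anchors, the median r in called cells was 0.213 and 0.180 within the early list, 0.226 and 0.221 within the late list and 0.100 and 0.117 across the lists. Across all Myh11-low cells these were 0.399 and 0.417, 0.323 and 0.341, and 0.268 and 0.320, higher in each of the 3 kinds of pair than among called cells alone.

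Genes outside the 35 with a pattern most like their sum were sought among 5822 genes with a UMI in at least 5% of thinned Myh11-low cells. The 10 with the highest mean r over both libraries were H2afz, a histone H2A variant (0.660 and 0.671), Cks2 (0.596 and 0.650), Smc2 (0.601 and 0.616), Pclaf (0.556 and 0.599), Cdca8 (0.547 and 0.566), Smc4 (0.544 and 0.554), Ube2s (0.552 and 0.540), Stmn1 (0.518 and 0.556), Diaph3 (0.477 and 0.486) and Racgap1 (0.462 and 0.476). Of these, 5 are in the list of further mitosis genes. Among the counted genes, 9 of the 35 members overlap a gene on the opposite strand, such as Ccna2 with Exosc9 and Prc1 with Rccd1, and 0 overlap one on the same strand.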

How the data were processed

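The authors aligned the reads with Cell Ranger (version 3.0.2 in the labels; the headers name 3.0.2 for library 1 and 3.1.0 for library 2) and deposited the counts of UMIs, 1 whole number for each gene and barcode, for 6794880 barcodes per library, neither normalized nor filtered for cells. Total counts were 127949633 and 132561822 UMIs. The build is not stated in the paper's text. The labels name mm10, and gene IDs were matched to GENCODE M21 (GRCm38), which held 31011 of 31053.

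From these counts, cells and classes were taken as given above, and sums of counts per library and class (6 sums) were fitted with edgeR 4.0.16 (glmQLFit, glmQLFTest, TMM, filterByExpr, adjusted p threshold 0.05), in R 4.3.3. Cells are not replicates. Nothing in the labels beyond the replicate numbers describes the cultures, so that p-values measure the spread between 2 libraries. Myh11 and the 4 EC genes, which define the classes, were left out of counts of calls. All 35 members passed the filter. DESeq2 1.42.0 was an alternative. Standard errors were taken as the fold change on the log2 scale divided by the root of its F value. Since 1 culture gave all sums of a library, the numbers pair them. Deviations of same-numbered sums from the class means correlated across genes at 0.654 (Myh11-high and Myh11-low), 0.304 (Myh11-high and ECs) and 0.342 (Myh11-low and ECs). Members that edgeR called only with the block are named, and for the other gene lists the counts with the block are given.

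Free RNA was estimated at 3.16% and 3.81% of the UMIs of cells, from 3 EC genes in cells that are no ECs, and is rough. No doublet caller was run, and leaving out the top 5% of cells by UMIs was an alternative. Thinning drew UMIs without replacement (seed 1). Members, gene lists, anchors and tests were chosen with earlier results of these data known. All 35 members are named, with the 4 highest of the further mitosis genes, the 3 highest S-phase genes and the 10 genes most like the sum. The sets of further mitosis genes called in ECs and the S-phase genes called there were named after their values were seen. Promoter windows are from RefSeq, and those of Ccna2, Kif20a, Tpx2, Aurkb and Incenp were not used here.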

Additional observations from a re-analysis of the deposited data

How the results depend on the processing

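Between Myh11-low and Myh11-high cells, the number of members called was 0 with edgeR and with size factors of DESeq2, without the filter, with at least 1000 UMIs, at 10000 to 30000 UMIs and with free RNA subtracted. It was 2 with the DESeq2 test (5.82% of all genes were called lower), 1 with classes by Myh11 CPM (3.46%), 1 with classes at 10 and 0 Myh11 UMIs (5.01%), 1 without the top 5% of cells by UMIs (2%) and 4 with the replicate block (8.83%). The median log2 fold change lay between -0.21 and -0.03 over the same alternatives and between -0.38 and 0.02 when either library was left out. In ECs, 8 members were called lower, and 14 with the DESeq2 test (9.9% of all genes), 14 without the top 5% of cells by UMIs (8.92%), 16 with the replicate block (15.6%) and 1 at 10000 to 30000 UMIs (8.59%), where the median was -0.14. Leaving out either library gave medians from -0.75 to -0.23. A fit with 1 library per class has no error, so that no calls were counted there. Of the members never called, 12 of 31 changed direction between the Myh11 classes with classes by CPM and 19 of 31 without replicate 2, and in ECs 14 of 19 did at 10000 to 30000 UMIs and 12 of 19 without replicate 1. None of the members called in edgeR or with the block changed direction. Shares of called Myh11-low cells ranged from 25.5% to 33.4% over single libraries and moved to 22.1% when thinned to 3000 UMIs. Those of Myh11-high cells ranged from 35.5% to 38.8% and moved to 31.0% at 10000 to 30000 UMIs, 31.4% with classes by Myh11 CPM, 25.4% thinned to 3000 UMIs and 30.3% thinned to 10000 UMIs, the last chosen after seeing the data. Late-only cells were 11.8% to 13.1% of called Myh11-low cells over single libraries, 14.8% at 10000 to 30000 UMIs, 13.5% with 1 UMI in 4 of 6 anchors and 15.9% thinned to 3000 UMIs. The cause was not tested. The EC sums rest on 102 and 141 cells, and the late-only values on 173 and 162 Myh11-low cells.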

Other observations

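The cells between the Myh11 classes, with 2 to 4 Myh11 UMIs, entered no comparison. Their 35 mitosis genes summed to 2650 and 3254 CPM, and 32.3% and 36.2% of the 337 and 442 cells carried the mitosis call. Late-only cells were 8.26% and 13.8% of the called ones. The contractile markers summed to 12010 and 11220 CPM in these cells, between those of the Myh11-high and Myh11-low cells.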
